A study of Mus musculus with 2 samples.

Results

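The Meg3-Rtl1 group is a run of 10 microRNA hairpins on mouse chromosome 12, namely Mir770, Mir673, Mir493, Mir337, Mir540, Mir665, Mir431, Mir433, Mir127 and Mir434. They were picked out by gene symbol and position, with earlier results of these data known, and are 10 of the 1973 microRNA genes in the count tables. All 10 were detected, with 10 or more reads in each pup. Small RNA had been sequenced from the forebrains of newborn mice of strain B6NCrl at postnatal day 0, with no allele or treatment named in the labels. The 2 biological replicates of this 1 group came from different pups, a single forebrain from each, called pup 3 and pup 1 as in the labels. The labels list the same donor record for both and do not give the sex. With 1 tissue at 1 age there is no contrast between conditions, and the results below are levels and their spread between the pups.

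The hairpins belong to the imprinted Dlk1-Dio3 region, in which the noncoding genes Meg3, Rian and Mirg and the microRNAs among them are expressed from the maternal chromosome, while Dlk1 and Rtl1 are expressed from the paternal one. Rtl1 is a retrotransposon-derived protein-coding gene needed in the fetal vessels of the placenta. MicroRNAs transcribed antisense to it match its mRNA perfectly and are known to direct its cleavage. A microRNA hairpin is cut to a short duplex, and the strand that is kept guides Argonaute to targets mainly through its seed, bases 2 to 8. In the brain the region is known for a rich set of neuronal microRNAs, of which another, larger group, from Mir379 to Mir410, lies further along the same chromosome.

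The group falls into a part that runs from inside Meg3 up to Rtl1 and a part antisense to Rtl1. On GRCm38, the assembly that mm10 names, the 10 hairpins lie on the plus strand within 30908 bases. Mir770 (ENSMUSG00000076451.1, chr12:109563692-109563785) lies inside Meg3, in an exon of 1 annotated transcript and in an intron of the other 3 that span it. Mir673 (chr12:109571990-109572080) starts 264 bases past the annotated end of Meg3, and Mir493 (chr12:109580233-109580315) lies in no other annotated gene. Mir337 (chr12:109585789-109585885) lies opposite to the annotated hairpin Mir3544, and Mir540 (chr12:109586080-109586146) and Mir665 (chr12:109586314-109586407) follow it at gaps of 194 and 167 bases. Mir431 (chr12:109590447-109590537), Mir433 (chr12:109591715-109591838), Mir127 (ENSMUSG00000070076.1, chr12:109592846-109592915) and Mir434 (ENSMUSG00000070133.1, chr12:109594506-109594599) lie wholly inside the coding sequence of Rtl1, on the strand opposite to it.

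The mature sequences of the 4 hairpins antisense to Rtl1 are shown first, because these hairpins held most of the group's reads and each sequence is an exact complement of Rtl1. They are given 5′ to 3′ from RefSeq on GRCm38.p6, with the seed in capitals.
mmu-miR-431-5p: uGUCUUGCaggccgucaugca
mmu-miR-431-3p: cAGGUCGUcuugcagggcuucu
mmu-miR-433-5p: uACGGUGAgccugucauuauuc
mmu-miR-433-3p: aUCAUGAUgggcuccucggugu
mmu-miR-127-5p: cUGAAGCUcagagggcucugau
mmu-miR-127-3p: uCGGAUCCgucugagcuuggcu
mmu-miR-434-5p: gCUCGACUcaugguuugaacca
mmu-miR-434-3p: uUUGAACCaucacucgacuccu

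The 12 mature sequences of the 6 hairpins from Mir770 to Mir665 are shown for comparison of their seeds, written in the same way.
mmu-miR-770-5p: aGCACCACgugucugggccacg
mmu-miR-770-3p: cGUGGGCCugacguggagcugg
mmu-miR-673-5p: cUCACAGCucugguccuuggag
mmu-miR-673-3p: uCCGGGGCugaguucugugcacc
mmu-miR-493-5p: uUGUACAUgguaggcuuuc
mmu-miR-493-3p: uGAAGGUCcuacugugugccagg
mmu-miR-337-5p: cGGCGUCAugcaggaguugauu
mmu-miR-337-3p: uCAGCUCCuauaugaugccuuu
mmu-miR-540-5p: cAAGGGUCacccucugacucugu
mmu-miR-540-3p: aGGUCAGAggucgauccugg
mmu-miR-665-5p: aGGGGCCUcugccucuauccaggauu
mmu-miR-665-3p: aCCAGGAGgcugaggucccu

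No seed was shared within the group. The 20 mature sequences carried 20 different seeds, and 18 of these were found in no other of the 1738 mature mouse microRNAs in the RefSeq table. The exceptions were miR-673-5p, whose seed is also that of miR-6985-3p, and miR-540-3p, whose seed is also that of miR-6915-5p. Of the 20 sequences, 8 began with U, and so did 41.3% of all 1738. Their median GC content was 56.8%, against 52.2% over all 1738.

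All 8 mature sequences from the hairpins antisense to Rtl1, and none of the other 12, were complementary over their full length to the annotated Rtl1 mRNA. The sites lie within the 1744 codons of the Rtl1 reading frame, from codons 273 to 280 for miR-434-3p up to codons 1642 to 1649 for miR-431-5p. The sites of the 3p strands of the most abundant hairpins are shown as they stand in the Rtl1 mRNA, on the minus strand of chromosome 12 from 109592888 to 109592909 and from 109594565 to 109594586, with the match to the seed in capitals.
Rtl1 site of miR-127-3p: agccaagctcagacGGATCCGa
Rtl1 site of miR-434-3p: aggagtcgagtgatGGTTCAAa
The matches follow from position, since these hairpins lie opposite to the Rtl1 coding sequence and the others lie outside Rtl1. They are a property of the sequences, and neither Rtl1 mRNA nor its cleavage was measured in these libraries.

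The hairpins of Mir127 and Mir434 are printed in full from RefSeq, since they held most of the reads of the group. Capitals mark the annotated 5p and 3p mature strands, whose reads are pooled in a single count per hairpin.
Mir127 hairpin: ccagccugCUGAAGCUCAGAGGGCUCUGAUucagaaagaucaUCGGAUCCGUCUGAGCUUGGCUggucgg
Mir434 hairpin: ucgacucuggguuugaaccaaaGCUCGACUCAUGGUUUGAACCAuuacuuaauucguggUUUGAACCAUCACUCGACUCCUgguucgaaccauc
The run uuugaacca occurs 3 times in the Mir434 hairpin and is carried by both of its arms. Mir431 is alike in that the run gucuugcagg, of 10 bases, is carried by both arms. A shared run of 9 or more bases was found in 1.33% of the 677 mouse hairpins with both arms in the table, where the median was 4 bases. None of the 10 hairpins shared a stretch of 20 nucleotides with an annotated hairpin elsewhere, so none of their counts is called uncertain for a near-identical copy. This search covered annotated hairpins and not the genome.

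The libraries held 18798326 reads for pup 3 and 22470992 for pup 1, of which 7678662 in pup 3 and 9037087 in pup 1 were assigned to a microRNA gene. Levels are given as CPM, reads per 1000000 assigned reads. Between 43.0% and 43.5% of reads had been tallied as mapping to several places and stand in no count. Of the 7 neural hairpins listed for a check of the tissue, among them Mir137 and Mir128-1, all 7 were detected, with a summed level of 47765 CPM in pup 3 and 35694 CPM in pup 1. Hairpins of other tissues were low in sum, the highest being those of red blood cells with 370 CPM in pup 3 and 228 CPM in pup 1. Those of hindbrain and spinal cord had 146 CPM in pup 3 and 190 CPM in pup 1, and those of muscle had 44.5 CPM in pup 3 and 94.8 CPM in pup 1. The liver hairpin Mir122 had 75.0 CPM in pup 3 and 54.0 CPM in pup 1. Of these lists, 3 of 4 measured muscle hairpins and 1 of 4 hindbrain and spinal cord hairpins had no count in either pup. The muscle sum is therefore that of Mir206 alone. The zeros were at Mir1a-1, Mir133a-1, Mir133a-2 and Mir196a-1. Reads that map to several places stand in no count, so these zeros do not show that a tissue was absent.

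Together the 10 hairpins took 1.40% of all assigned reads in pup 3 (95% Wilson interval 1.39 to 1.41) and 2.50% in pup 1 (2.49 to 2.51), or 1.95% ± 0.780 (SD, n = 2). The hairpins antisense to Rtl1 held most of this. Their 4 counts made up 79.4% of the group's reads in pup 3 and 85.3% in pup 1, and Mir127 and Mir434 alone made up 58.3% in pup 3 and 63.2% in pup 1. No molecular identifiers are named and there is 1 library for each pup, so the intervals speak for counting error alone. The tissue is a mixture of cell types, so fewer cells of a type and less RNA per cell cannot be told apart in any level below.

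Mir127 was the most abundant of the group, a microRNA whose loss from the maternal chromosome is known to disturb the placental labyrinth in mice. It had 36706 reads or 4780 CPM in pup 3 and 73917 reads or 8179 CPM in pup 1, with a mean of 6480 ± 2403 CPM (SD, n = 2). By mean CPM, 29 genes stood above Mir127 among 1973, of which 433 were detected. Its rank was 42 in pup 3 and 21 in pup 1. Mir434, its neighbour inside Rtl1, had 26022 reads or 3389 CPM in pup 3 and 69001 reads or 7635 CPM in pup 1, with a mean of 5512 ± 3003 CPM. Mir127 was above Mir434 in each pup, but the ranges of the hairpins overlapped between pups.

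Mir431 and Mir433 stood lower and close to each other. Mir431, a microRNA known to promote axon growth in mouse sensory neurons, had 1497 CPM in pup 3 and 2842 CPM in pup 1 (mean 2169 ± 951). Mir433 had 1450 CPM in pup 3 and 2692 CPM in pup 1 (mean 2071 ± 879). The ratio of Mir431 to Mir433 was 1.03 in pup 3 (95% interval 1.01 to 1.06) and 1.06 in pup 1 (1.04 to 1.07). The hairpins therefore kept nearly the same ratio in both libraries while each was higher in pup 1.

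Outside Rtl1, Mir770 inside Meg3 was the most abundant. It had 13044 reads or 1699 CPM in pup 3 and 18430 reads or 2039 CPM in pup 1, with a mean of 1869 ± 241 CPM. Its range lay within those of Mir431 and Mir433. Mir770 was above both of them in pup 3 and below both in pup 1.

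The other 5 hairpins between Meg3 and Rtl1 were lower than these in both pups. Mir337 had 661 CPM in pup 3 and 898 CPM in pup 1 (mean 779 ± 167). Mir665 had 261 CPM in pup 3 and 267 CPM in pup 1 (mean 264 ± 3.67). Mir540, only 167 bases from Mir665, had 176 CPM in pup 3 and 349 CPM in pup 1 (mean 263 ± 122). Mir665 and Mir540 thus had nearly equal means, and Mir665 was higher in pup 3 and Mir540 in pup 1. Mir673 had 418 reads or 54.4 CPM in pup 3 and 823 reads or 91.1 CPM in pup 1 (mean 72.8 ± 25.9). Mir493 was the lowest, with 268 reads or 34.9 CPM in pup 3 and 331 reads or 36.6 CPM in pup 1 (mean 35.8 ± 1.22).

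**Figure D1:**
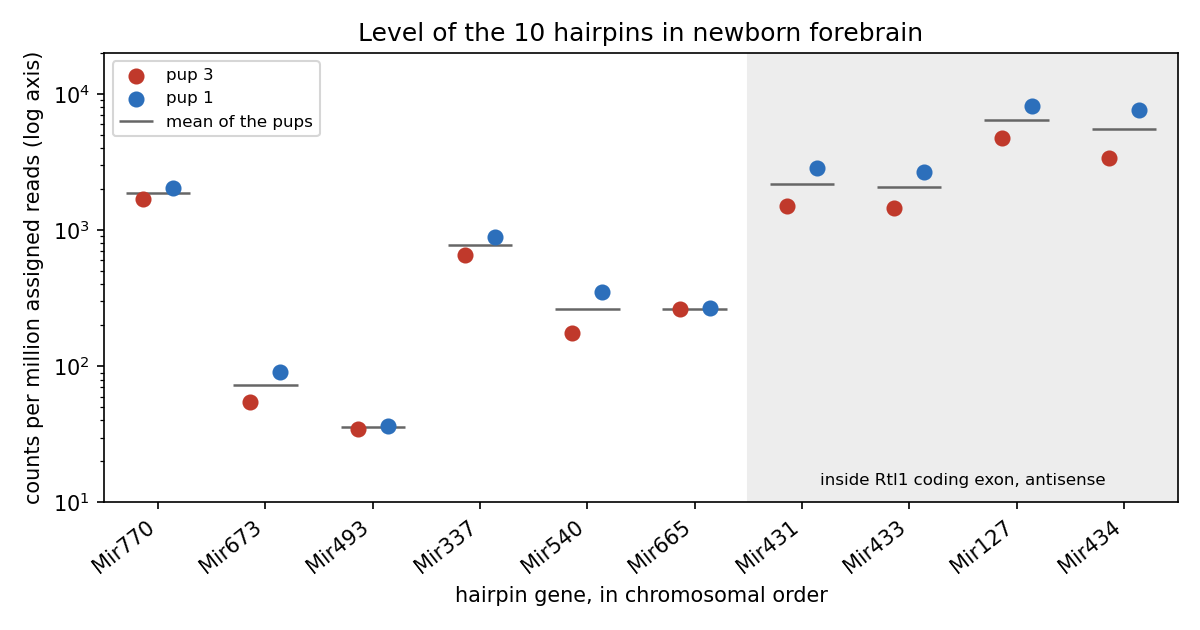
Level of each hairpin in pup 3 (red, left point) and pup 1 (blue, right point) in CPM assigned reads on a log axis, with the mean as a grey line. Mir127 and Mir434 stand highest and Mir493 lowest. The 4 hairpins of the group inside the Rtl1 coding exon (shaded) lie above 1000 CPM in both pups, as does Mir770 outside it.

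In the order of mean CPM, the ranges over the pups stayed apart at 5 of the 9 steps between neighbours. These were the steps from Mir434 to Mir431, from Mir770 to Mir337, from Mir337 to Mir665, from Mir540 to Mir673 and from Mir673 to Mir493. The ranges overlapped for Mir127 and Mir434, for Mir431 and Mir433, for Mir433 and Mir770, and for Mir665 and Mir540. Ranges leave out that both hairpins of a step were measured in the same 2 libraries. Compared within each pup, Mir127 stood above Mir434 and Mir431 above Mir433 in both pups. Mir433 and Mir770, and Mir665 and Mir540, changed order. With 2 values against 2, an exact two-sided permutation test without this pairing cannot go below p = 0.333. A paired test would have only 2 pups, so no step was tested. The highest hairpin stood 137-fold above the lowest in pup 3 and 223-fold in pup 1, although all 10 lie on the same strand of the same imprinted region. A microRNA read spans a whole mature strand, so CPM was not divided by hairpin length. Per base of hairpin, Mir770 passed Mir433 and Mir540 passed Mir665, and the order was otherwise the same.

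Levels were not even along the chromosome. From Mir770 they were lower at Mir673 and Mir493, then higher from Mir337 on, although Mir540 and Mir665 stood below Mir337. The highest were Mir127 and Mir434 at the far end. Across the 10 hairpins, Spearman's rho of mean CPM with distance from the start of Meg3 was 0.75, a description of hairpins that share the same libraries. It leaves out other annotated hairpins of this stretch. Mir3070a and Mir3070b, between Mir665 and Mir431, had means of 7.43 and 0.518 CPM. Past Mir434, Mir432 had no count and Mir3071 had a mean of 899 CPM. Before Mir770, Mir1906-1 had no count.

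**Figure D2:**
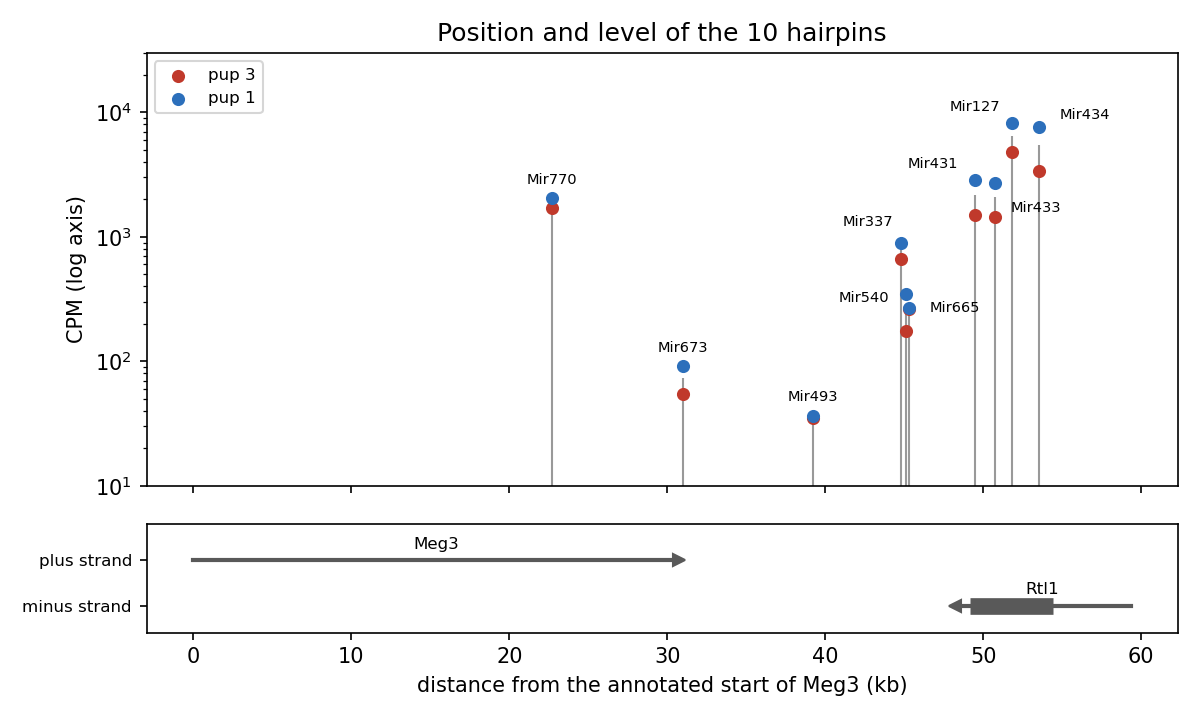
Level of each hairpin in pup 3 (red) and pup 1 (blue) in CPM on a log axis, against its distance from the annotated start of Meg3 in kilobases; grey stems reach the mean. The lower strip shows Meg3 on the plus strand and Rtl1 on the minus strand, with the Rtl1 coding sequence as a thick bar under Mir431, Mir433, Mir127 and Mir434.

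Reads lay on the plus strand, that of the hairpins, in nearly every case. For 9 of the 10 hairpins no read was counted on the opposite strand, the strand that encodes Rtl1 at 4 of them. For Mir127, an upper bound was taken as 3 counts over its reads, about the 95% limit when 0 are seen. The bound on the opposite-strand share was 0.00817% for 0 of 36706 reads in pup 3. It was 0.00406% for 0 of 73917 reads in pup 1. The exception was Mir337, with 3 opposite reads of 5078 in pup 3 (0.0591%, 95% Wilson interval 0.0201 to 0.174) and 16 of 8111 in pup 1 (0.197%, 0.121 to 0.320). At that place the annotation has the minus-strand hairpin Mir3544, which has no row of its own in the tables.

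Mir434, Mir540, Mir431 and Mir433 were lower in pup 3 than in pup 1 by 1.5-fold or more, and 3 of these 4 lie antisense to Rtl1. The ratio of pup 3 over pup 1 was scaled by TMM factors, which set the bulk of genes to an equal level, and a hairpin was called at 1.5-fold or more (a log2 ratio of 0.58 or more in size). Of the 10 hairpins, 4 were called lower, 0 were called higher and 6 were within 1.5-fold. Over all 433 detected genes, 15.5% were called lower and 18.5% higher. The median log2 ratio of the 10 hairpins was -0.56, and that of the 433 genes was 0.00, with the middle 50% of genes between -0.36 and 0.41. It was -0.71 for the 4 hairpins antisense to Rtl1 and -0.15 for the other 6, although Mir540, which is not antisense to Rtl1, had a lower ratio than 3 of the 4. The hairpins were chosen with earlier results known in which the imprinted region was lower in pup 3, so these counts are no independent support for that direction. These are ratios of single libraries, so they compare pups and not conditions, and no p-value was computed, by edgeR or any other tool.

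Mir434 had the lowest ratio, at 0.510 of its level in pup 1, which is a log2 ratio of -0.97 (-0.99 to -0.95, the 95% exact binomial interval). Only 22 of the 433 genes had a lower one. Mir540 followed with -0.79 (-0.88 to -0.69), and Mir431 and Mir433 had -0.73 (-0.76 to -0.69) and -0.69 (-0.73 to -0.66). Mir127, with -0.57 (-0.59 to -0.56), lay just short of the threshold, as did Mir673 with -0.54 (-0.72 to -0.37).

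The remaining hairpins differed little between the pups. Mir337 had a log2 ratio of -0.24 (-0.29 to -0.19) and Mir770 of -0.06 (-0.10 to -0.03). Mir493 had 0.13 (-0.11 to 0.37) and Mir665 had 0.17 (0.09 to 0.26) under TMM, and both were below 0 when libraries were scaled by total counts, at -0.07 and -0.03. That scaling moved every log2 ratio by -0.20. Under it 6 of the 10 hairpins were called lower, among them all 4 antisense to Rtl1, against 23.3% of all detected genes, and 0 were called higher, against 12.5%.

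**Figure D3:**
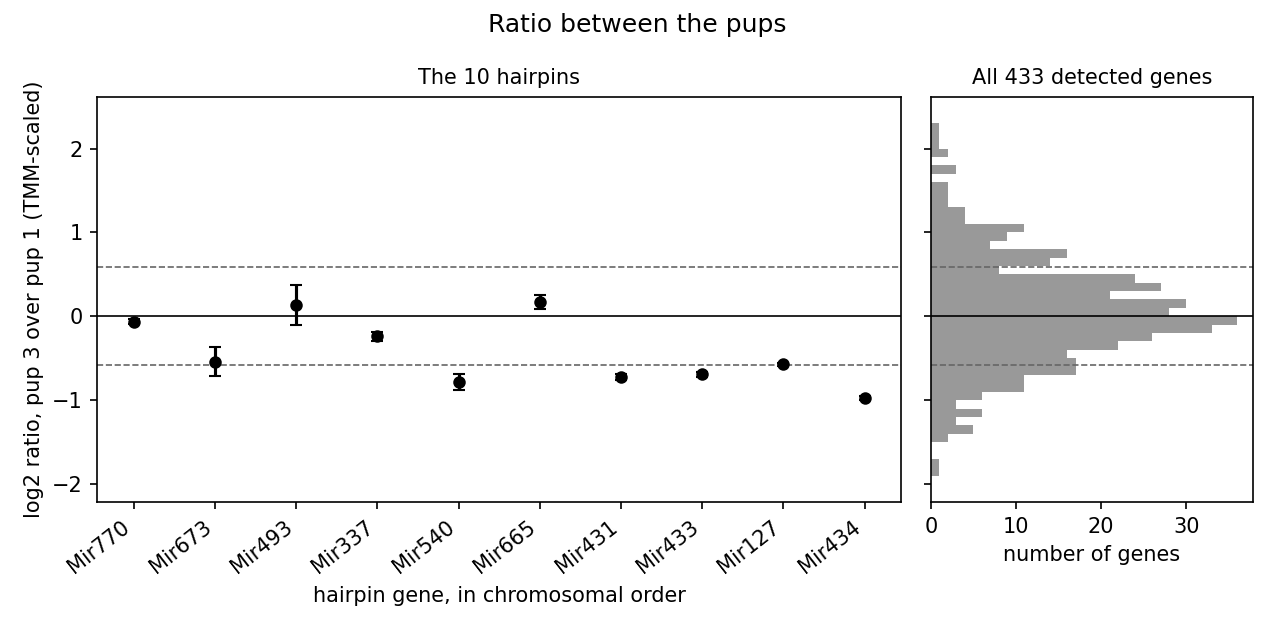
Left, log2 ratio of pup 3 over pup 1 for each hairpin after TMM scaling, with 95% exact binomial intervals that cover counting error only; right, the same ratio for all 433 detected genes as a histogram of gene numbers. Dashed lines mark 1.5-fold; Mir434, Mir540, Mir431 and Mir433 lie below the lower one and none of the 10 above the upper one.

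Ratios within a library do not depend on scaling. Those given here differed between the pups, whereas the ratio of Mir431 to Mir433, given above, was nearly the same. The summed reads of the 4 hairpins antisense to Rtl1 were 3.85 times those of the other 6 in pup 3 (95% interval 3.79 to 3.91) and 5.80 times in pup 1 (5.73 to 5.87). Mir127 stood at 1.41 times Mir434 in pup 3 (1.39 to 1.43) and at 1.07 times in pup 1 (1.06 to 1.08). Mir665 stood at 1.48 times Mir540 in pup 3 (1.38 to 1.59) and at 0.763 times in pup 1 (0.724 to 0.805). Hairpins 167 bases apart thus changed order between the pups by more than counting error. With 1 library for each pup, a difference between the animals and one between library preparations cannot be told apart.

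Other annotated hairpins between Meg3 and Mir379 all stood below Mir770 in both pups. Of 10 in the tables, 5 were detected, and Mir1906-1, Mir432, Gm23912 and Mir882 had no count in either pup. Of these, Mir432 lies inside the Rtl1 coding sequence on the opposite strand, as Mir431, Mir433, Mir127 and Mir434 do. Mir370, in Rian, had 691 CPM in pup 3 and 1381 CPM in pup 1, and Mir341 had 490 CPM in pup 3 and 977 CPM in pup 1. Both had log2 ratios close to that of Mir540, at -0.80 for Mir370 and -0.79 for Mir341. Mir3071, which GENCODE M21 places opposite to Mir136 at the start of the Rtl1 reading frame, had 773 CPM in pup 3 and 1025 CPM in pup 1. Its identifier has another version in the tables, so the strand of those reads is uncertain here, and Mir136 has no row of its own. Mir3070a and Mir1188 had 6.90 CPM each in pup 3, against 7.97 CPM for Mir3070a and 10.6 CPM for Mir1188 in pup 1, and Mir3070b had 2 reads in pup 3 and 7 in pup 1. The rest of the detected neighbours had log2 ratios smaller in size than Mir370 and Mir341. These were -0.42 (-0.93 to 0.08) for Mir1188, -0.21 (-0.25 to -0.16) for Mir3071 and -0.003 (-0.55 to 0.52) for Mir3070a.

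The Mir379-to-Mir410 hairpins, the larger group further along the region, held more reads in sum but were lower in their median. Of 40 listed hairpins, which include Mir3544 from opposite Mir337, outside this larger group, 34 have a row in the tables and 32 were detected. They took 5.12% of all assigned reads in pup 3 and 8.08% in pup 1, so that the 10 Meg3-Rtl1 hairpins had 0.274 times their reads in pup 3 and 0.310 times in pup 1. The median level was 1056 CPM for the 10 hairpins and 240 CPM for the list in pup 3, and 1468 CPM for the 10 hairpins and 342 CPM for the list in pup 1. These medians depend on how the lists were drawn up. The list keeps 2 hairpins at 0 in both pups. The 10 leave out the other annotated hairpins between Meg3 and Mir379, whose median was 3.58 CPM in pup 3 and 4.37 CPM in pup 1. Mir487b alone held 43.1% of the list's reads in pup 3 and 46.8% in pup 1, and it shares a stretch of 20 nucleotides with Mir376b, so its count is uncertain. Without Mir487b the 10 hairpins had 0.481 times the list's reads in pup 3 and 0.582 times in pup 1.

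The 3 most abundant of the list were Mir487b, Mir411 and Mir382, of which Mir487b stood above Mir127 in both pups, Mir411 in pup 3 and Mir382 in neither. Mir411 shares a stretch of 20 nucleotides with Mir758, so its count and its place beside Mir127 are uncertain too. Mir487b had 22042 CPM in pup 3 and 37790 CPM in pup 1, Mir411 had 6380 CPM in pup 3 and 7734 CPM in pup 1, and Mir382 had 4106 CPM in pup 3 and 6570 CPM in pup 1. By the 1.5-fold rule, 11 of the 32 detected hairpins of the list were lower in pup 3 and 1 was higher, with a median log2 ratio of -0.37, against 15.5% lower and 18.5% higher over all detected genes. Scaled by total counts, 16 were lower and 0 higher, against 23.3% and 12.5% of all detected genes. The difference from the 10 hairpins, with 4 lower and a median of -0.56, was not tested, since neighbouring hairpins are not replicates.

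**Figure D4:**
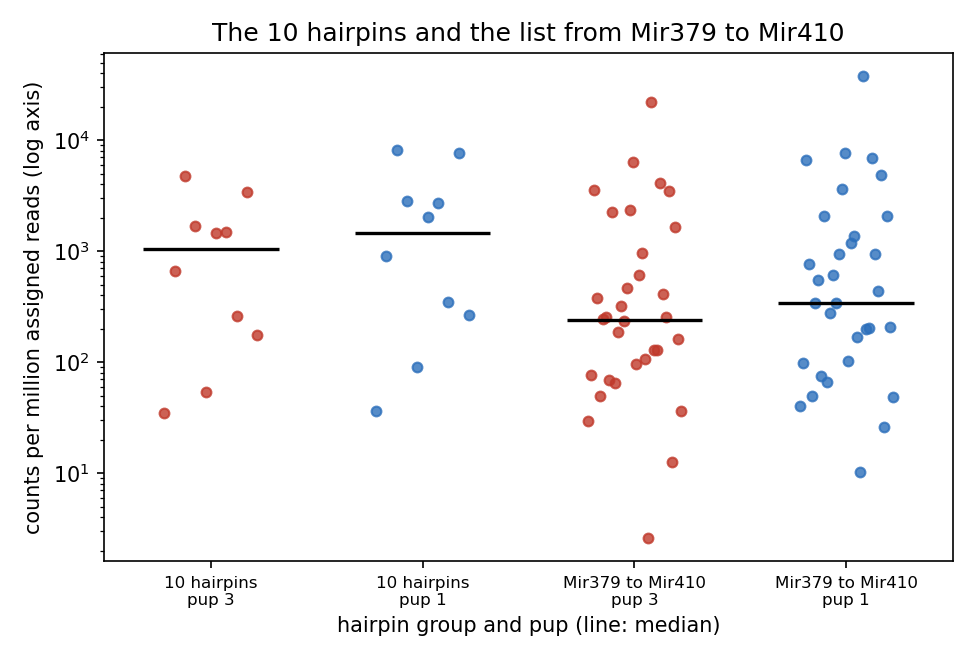
Levels of the 10 Meg3-Rtl1 hairpins and of the Mir379-to-Mir410 list in pup 3 (red) and pup 1 (blue), in CPM on a log axis; each point is a hairpin, and lines are medians over all hairpins with a row, including 2 of the list at 0 that a log axis cannot show. The medians of the 10 hairpins (1056 and 1468 CPM) lie above those of the list (240 and 342 CPM), whose highest point is Mir487b. The 10 leave out the other annotated hairpins between Meg3 and Mir379.

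Over both pups, the gene closest in level to Mir127 was Gm25252, with 4569 CPM in pup 3 and 7609 CPM in pup 1, at a distance of 0.123 on the log2 CPM scale. It also lies in the imprinted region, where all of its reads fell on the strand of Mir376a. Mir106b on chromosome 5 (distance 0.332) and Mir449a on chromosome 13 (0.375) followed. The distance is taken over 2 samples and describes level only.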

How the data were processed

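Small RNA reads from 2 newborn forebrains, 1 group, were analysed. The deposited values are whole-number counts of reads per microRNA gene on mm10 with GENCODE M4, per the notes deposited beside each table. The sources used here name neither the aligner nor the counting tool. Column 2 was used, which equals the sum of columns 3 and 4, read as sense and opposite strand, in all 1973 genes. The 4 tally rows stayed out of library sizes: in pup 3 and pup 1, 43.5% and 43.0% of reads were multimapping, 14.4% and 14.9% unmapped, 1.26% and 1.85% in no gene and none ambiguous. Names and positions came from GENCODE M21 by identifier (1894 matched); the version differed for 3 of the 10 hairpins, so their bounds in M4 may differ.

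Ratios used counts with 0.5 added and TMM factors of edgeR 4.0.16 (0.933 for pup 3, 1.07 for pup 1). Alternatives were total counts, DESeq2 1.42.0 size factors, the sense column, a prior of 2, other count minimums and each pup alone. No contrast exists, so no gene-wise test was run. Intervals were checked on simulated counts of 433 genes with counting error only: 95.8% covered the true ratio, and 3.86% of unchanged genes passed 1.5-fold. The text names all 10 hairpins, all annotated hairpins between Meg3 and Mir379, the 3 highest hairpins of the list from Mir379 to Mir410, the 3 genes closest in level to the top hairpin, and sharers of a seed. The hairpins and lists were chosen with earlier results of these data known, which already showed the region lower in pup 3. Python 3.11.15 and R 4.3.3 were used.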

Additional observations from a re-analysis of the deposited data

How the results depend on the processing

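All 10 hairpins were detected under every minimum tried (1, 10 and 100 counts), in the sense-strand column and in either pup alone. The count called lower in pup 3 was 4 with TMM, DESeq2 size factors, a prior of 2 and both other filters, 5 in the sense-strand column and 6 with total counts, and the count called higher was 0 throughout. The median log2 ratio of -0.56 became -0.76 with total counts, by that scaling's shift, and ranged from -0.58 to -0.55 under the other settings. The mean share of assigned reads, 1.95%, was 1.40% to 2.50% with a replicate left out, 0.789% of all reads of the library, and 0.752% without Mir127 and Mir434, a setting chosen after seeing the data. The ratio of the 10 hairpins to the Mir379-to-Mir410 list, 0.292 on the mean of the pups, was 0.274 to 0.310 with a replicate left out. It was 0.678 over hairpins without a shared stretch, which drops Mir487b, Mir411, Mir758 and Mir376c, and 0.253 with Gm25252, Gm25750 and Gm24321 added after seeing the data. No paired comparison of conditions was possible because there is 1 group. Ratios between pups could not be computed with a pup left out. For Mir493, the least abundant, depth limits the ratio to an interval from -0.11 to 0.37.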
